A study of Homo sapiens with 18 samples.

Results

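Genes of the myocardin and serum response factor (SRF) system were followed through U2OS, an established human osteosarcoma cell line, carrying the Ewing sarcoma fusion EWS-FLI1 or a variant of it. They were the cofactor MYOCD, SRF itself, the smooth muscle contractile genes ACTA2, TAGLN, CNN1 and MYL9, the tropomyosins TPM1 and TPM2, and the striated muscle genes TNNT2 and XIRP1. The members were chosen by name, with earlier results of these libraries in view: the low MYOCD and high TAGLN counts of cells with EWS(YS37)-FLI1. They make up 10 of 35579 genes with a matched transcript, and all 10 were among the 16786 genes expressed highly enough to be tested. The question that the list poses is whether the fall of MYOCD goes with its smooth muscle targets.

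PolyA RNA had been sequenced from 18 libraries, 3 for each of 6 groups. Every group was U2OS with an integrated construct. Untreated cells carried mCherry alone (the control) or mCherry joined to EWS-FLI1, to EWS-FLI1mut or to EWS(YS37)-FLI1, which the design text spells EWS(37YS)-FLI1. The other groups were mCherry-EWS-FLI1 cells given 7.5 µM LY2835219 for 6 h or 24 h. LY2835219 is abemaciclib, which blocks the kinases CDK4 and CDK6 that drive entry into S phase. These times come from the titles, the characteristics and the design text, whereas the treatment protocol in the labels gives other ones. The labels do not say what is changed in EWS-FLI1mut or in EWS(YS37)-FLI1, whether a line is a clone or a pool, or whether untreated cells received a vehicle. No construct has independently made lines, so each p-value measures the spread between libraries of a single line.

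Myocardin is a coactivator found mainly in heart and smooth muscle. It has little DNA contact of its own and acts by binding SRF, which recognises CArG boxes, short elements with CC at the start, GG at the end and A or T bases between them. Related coactivators, MRTFA and MRTFB, are held in the cytoplasm by free actin and released when actin is assembled, while the ternary complex factors of the ELK family take SRF to growth factor genes such as FOS and EGR1. SRF target genes therefore include muscle contractile genes, cytoskeletal genes of most cell types and immediate early genes.

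Promoter sequence was at hand for 7 of the 10 members in RefSeq (GRCh38.p14), covering 250 bases before to 50 bases after each start. MYOCD, TAGLN and MYL9 were not matched. The stretches below are shown because they hold the CArG boxes, or near matches with exactly 1 base outside the pattern, in the SRF, ACTA2 and TNNT2 promoters. Each is written 5′ to 3′ on the gene's strand, with the matches in capitals.
SRF, chr6:43171219-43171268, plus strand: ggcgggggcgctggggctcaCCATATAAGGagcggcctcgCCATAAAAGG
ACTA2, chr10:88952824-88952903, minus strand: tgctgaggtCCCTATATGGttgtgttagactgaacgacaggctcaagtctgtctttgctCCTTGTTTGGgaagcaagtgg
TNNT2, chr1:201377816-201377885, minus strand: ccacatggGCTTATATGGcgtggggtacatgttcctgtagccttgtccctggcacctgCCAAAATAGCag
SRF held 2 full CArG boxes, whose first bases lay 30 and 10 bases before the start. ACTA2 held near matches at 121 and 71 bases before the start, and TNNT2 at 197 and 147 bases before it. Both strands were searched, and no matches overlapped. A full CArG box was present in 1 of the 7 members (SRF) and in 454 of 35116 promoters of the same length (1.29%). Here and below members are counted as genes, a match at any listed start sufficing, while the background counts promoters. SRF, ACTA2 and TPM2 had more than 1 start listed, so the 2 figures are not on the same unit. Near matches were present in 3 of the 7 and in 6292 promoters (17.9%). The third of these was in SRF, from 14 bases after the start, outside the stretch shown. The repeat GGAAGGAA, a tandem of the core that ETS factors such as FLI1 bind, was found in 0 of the 7 and in 3.67% of all promoters. CATTCC, the core bound by TEAD factors, was found in ACTA2 and TNNT2 and in 14.0% of all promoters. These matches describe the letters in the window and do not show binding.

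Library totals ran from 16261034 to 20270637 estimated counts, and no pair of replicates agreed within sampling noise. FLI1 counts, which include those of the fusion, matched the labels: 0.0534 to 1.16 CPM (counts scaled to a common library size) with mCherry, 232 to 265 with EWS-FLI1, 626 to 664 with EWS-FLI1mut and 987 to 1069 with EWS(YS37)-FLI1. In treated EWS-FLI1 cells FLI1 was 388 to 430 CPM at 6 h and 225 to 244 CPM at 24 h. The constructs were thus present at unequal levels, and the part of this in the differences below was not tested. Of the osteoblast markers, RUNX2 (58.7 CPM with mCherry) and COL1A1 (1692 CPM) were present, while SP7, BGLAP and IBSP were below 0.3 CPM on average in every group. Summed blood cell markers stayed between 1.56 and 2.92 CPM, and CD3E, a T cell gene, had 0 counts in all libraries. In whole-culture RNA, fewer cells of a type and less RNA per cell cannot be told apart.

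All CPM values, above and below, were scaled with trimmed-mean (TMM) factors. Levels with ± are mean ± SD of 3 libraries, and values after ± in a log2 fold change are standard errors. A gene is said to rise or fall when edgeR's quasi-likelihood p, adjusted by Benjamini-Hochberg over all tested genes, was under 0.05. Per transcript length, control cells held far more tropomyosin than myocardin: the length-normalised level (TPM) was 606 for TPM1, 465 for TPM2, 111 for MYL9, 86.0 for TAGLN, 40.8 for TNNT2, 24.0 for SRF, 18.5 for CNN1, 7.08 for MYOCD, 3.90 for ACTA2 and 0.192 for XIRP1. The skeletal muscle determination genes MYOD1, MYOG, MYF5 and MYF6 averaged at most 0.0508 CPM in any group, and MYH11, the defining smooth muscle myosin, was at 0.676 CPM with mCherry. Of the 16 smooth muscle genes listed, members included, 5 were under 1 CPM with mCherry, while others such as CALD1 (194 CPM) and CNN1 (16.9 CPM) were present.

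**Figure D1:**
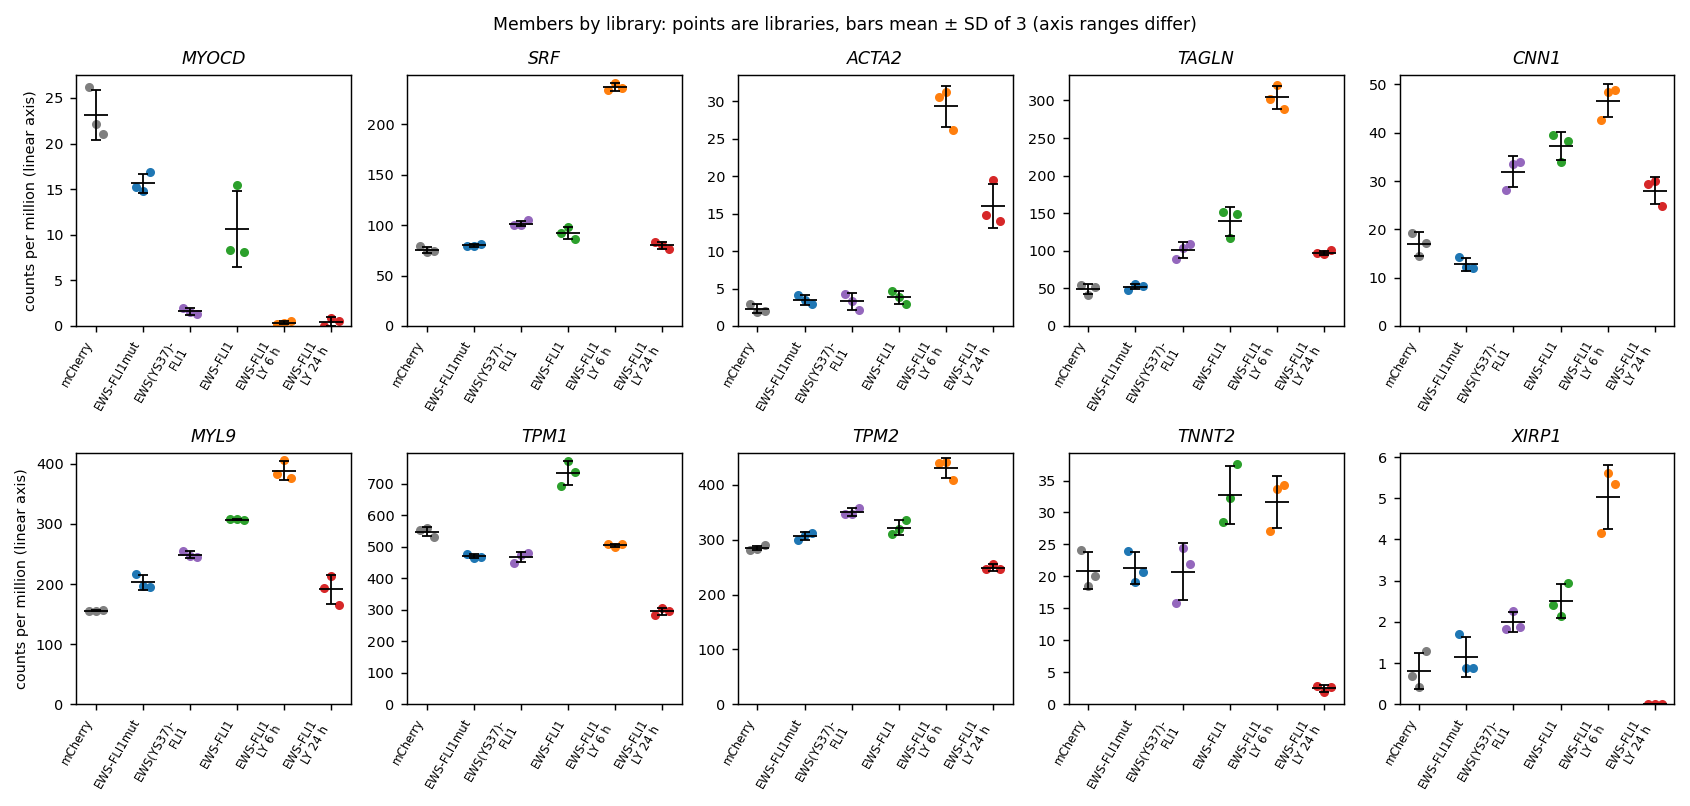
Each panel plots the TMM-scaled CPM (vertical axis, linear) of 1 member in the 18 libraries by group (horizontal axis); points are libraries and bars the mean ± SD of 3. MYOCD is highest with mCherry (21.0 to 26.3 CPM) and below 1 CPM in all 6 LY2835219 libraries, while TAGLN reaches 289 to 321 CPM at 6 h.

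With EWS-FLI1, MYOCD fell and the other 9 members rose. MYOCD (ENSG00000141052, chr17:12665890-12768949 of hg38, plus strand) measured 26.3, 22.2 and 21.0 CPM in the mCherry libraries and 8.33, 15.4 and 8.06 CPM with EWS-FLI1. All EWS-FLI1 libraries lay below all mCherry libraries, with replicate 2 nearest to them. The fall was 2.18-fold (log2 -1.13 ± 0.26, adjusted p = 0.00333). It ranged from -1.48 to -0.95 when any 1 library was left out, a call each time, but missed the threshold with transcript-length offsets (-1.23, adjusted p = 0.0708). The mCherry libraries were also part of the contrast that chose MYOCD and TAGLN. Adjusted p-values of these genes against mCherry are therefore not independent of that choice.

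SRF (ENSG00000112658, chr6:43171299-43181507, plus strand), whose own promoter carries the 2 full CArG boxes shown above, moved the other way by a small amount. It measured 79.1, 73.5 and 74.6 CPM with mCherry and 92.6, 97.7 and 86.3 CPM with EWS-FLI1, a separation without overlap and a rise of 0.28 ± 0.06 (adjusted p = 0.000758).

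TAGLN (ENSG00000149591, chr11:117199321-117204782, plus strand), which encodes transgelin, an actin-binding protein and a widely used early smooth muscle marker, showed the clearest rise among the contractile genes. It measured 53.9, 41.6 and 51.4 CPM with mCherry and 151, 117 and 149 CPM with EWS-FLI1, or 2.84-fold more (log2 1.51 ± 0.10, adjusted p = 1.94e-10). CNN1 (ENSG00000130176, chr19:11538717-11550323, plus strand), calponin, an actin-binding regulator of contraction, went from 19.3, 14.4 and 17.1 CPM to 39.6, 33.9 and 38.3 CPM (1.13 ± 0.11, adjusted p = 1.37e-07). For both genes every EWS-FLI1 library stood above every mCherry library. MYL9 (ENSG00000101335, chr20:36541484-36551447, plus strand), a regulatory light chain of smooth muscle and non-muscle myosin, was the most even across replicates, at 155, 155 and 157 CPM against between 306 and 308 CPM (0.98 ± 0.07, adjusted p = 2.89e-10).

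ACTA2 (ENSG00000107796, chr10:88935074-88991339, minus strand), smooth muscle alpha-actin, was low in untreated cells. It measured 2.98, 1.91 and 1.95 CPM with mCherry and 4.68, 3.90 and 2.96 CPM with EWS-FLI1, and the groups overlapped. Its rise of 0.74 ± 0.25 passed narrowly (adjusted p = 0.0340). The call was lost without EWS-FLI1 replicate 1 (adjusted p = 0.168) or 2 (0.0687) and without mCherry replicate 2 (0.12) or 3 (0.12).

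The tropomyosins, which lie along actin filaments, rose less. TPM1 (ENSG00000140416, chr15:63042632-63071915, plus strand) went from 554, 559 and 532 CPM to 693, 772 and 739 CPM (0.42 ± 0.05, adjusted p = 1.11e-06), and TPM2 (ENSG00000198467, chr9:35681992-35690121, minus strand) from 282, 283 and 289 CPM to 310, 319 and 336 CPM (0.18 ± 0.05, adjusted p = 0.00867). Neither pair of groups overlapped. Both striated muscle genes also rose. TNNT2 (ENSG00000118194, chr1:201359008-201377762, minus strand), cardiac troponin T, measured 24.1, 18.5 and 20.0 CPM against 28.5, 32.3 and 37.6 CPM (0.65 ± 0.15, adjusted p = 0.00253), a call that limma on log2(TPM + 1) did not make (adjusted p = 0.0772). XIRP1 (ENSG00000168334, chr3:39183210-39192596, minus strand), an actin-binding protein of cell junctions in striated muscle, was at 0.685, 0.426 and 1.28 CPM against 2.40, 2.15 and 2.95 CPM (1.63 ± 0.37, adjusted p = 0.00295).

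All 10 members, MYOCD and TAGLN included, were called in EWS-FLI1 against mCherry, where 21.1% of all tested genes were called (11.1% rose and 9.95% fell). Their median log2 fold change was 0.69, beside -0.02 over all genes, and that of the 8 contractile members, all of which rose, was 0.86.

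Few members differed between EWS-FLI1mut and mCherry. MYOCD measured 15.2, 14.8 and 16.8 CPM, below every mCherry library, but its difference of -0.57 ± 0.26 did not pass (adjusted p = 0.212). The same difference passed when only these 2 groups were fitted (adjusted p = 0.00536) and when no filter on low counts was used (adjusted p = 0.0157). MYL9 rose to 217, 197 and 195 CPM (0.38 ± 0.07, adjusted p = 0.000675), TPM1 fell to 477, 466 and 469 CPM (-0.22 ± 0.05, adjusted p = 0.00613) and CNN1 fell to 14.4, 12.2 and 11.9 CPM (-0.41 ± 0.12, adjusted p = 0.0385). The MYL9 and TPM1 libraries did not overlap the controls, although limma on log2(TPM + 1) did not call TPM1 (adjusted p = 0.12), while the call on CNN1 was lost without EWS-FLI1mut replicate 2 (adjusted p = 0.135) or 3 (0.141) and without mCherry replicate 1 (0.186) or 3 (0.0967). TAGLN, at 48.3, 55.6 and 52.5 CPM, overlapped the controls (0.09 ± 0.10, adjusted p = 0.677). Thus 1 member rose and 2 fell, 3 of 10, where 7.15% of tested genes were called (3.53% rose and 3.62% fell), and the member median was 0.08 beside 0.00 over all genes.

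The direct contrast of EWS-FLI1 with EWS-FLI1mut called 7 of 10 members, all higher with EWS-FLI1, where 16.3% of tested genes were called (8.78% higher and 7.51% lower). CNN1 differed by 1.54 ± 0.11 (adjusted p = 1.38e-09), TAGLN by 1.42 ± 0.10 (adjusted p = 4e-10), TPM1 by 0.64 ± 0.05 (adjusted p = 1.91e-09) and MYL9 by 0.60 ± 0.06 (adjusted p = 6.68e-07). CNN1 and TPM1 had moved in opposite directions against mCherry in these lines. MYOCD did not pass (-0.56 ± 0.26, adjusted p = 0.163) and its libraries overlapped, but without EWS-FLI1 replicate 2, its highest library, it did (-0.91, adjusted p = 0.0305). TNNT2 passed (0.62 ± 0.15, adjusted p = 0.00424, but 0.168 with limma on log2(TPM + 1)), as did SRF (0.21 ± 0.06, adjusted p = 0.0123) and XIRP1 (1.12 ± 0.35, adjusted p = 0.0336). The call on SRF was lost without EWS-FLI1 replicate 2 (adjusted p = 0.0526), and that on XIRP1 without EWS-FLI1 replicate 1 (0.0682) or 3 (0.101) or EWS-FLI1mut replicate 2 (0.128) or 3 (0.13). Limma on log2(TPM + 1) called neither SRF (adjusted p = 0.178) nor XIRP1 (0.166). XIRP1 was also lost with transcript-length offsets (0.2) and with protein-coding transcripts only (0.0586).

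The EWS(YS37)-FLI1 libraries are the ones that put MYOCD and TAGLN on the list, so their values against mCherry are given without a test. MYOCD measured 1.99, 1.47 and 1.32 CPM, the lowest of the untreated groups and well apart from 21.0 to 26.3 CPM in the controls. TAGLN measured 88.8, 104 and 109 CPM, CNN1 28.2, 33.5 and 34.0 CPM, and MYL9 255, 247 and 245 CPM, each above every control library. TPM1 lay below the controls at 448, 475 and 479 CPM, TPM2 above them at 347, 346 and 358 CPM, and SRF above them at 99.8, 100 and 105 CPM. ACTA2 (4.28, 3.38 and 2.13 CPM) and TNNT2 (15.8, 24.4 and 21.9 CPM) overlapped the controls, and XIRP1 (1.82, 2.26 and 1.88 CPM) did not. Of all tested genes 21.7% were called in this contrast (11.5% higher and 10.2% lower). No count of called members is given for it, because it chose them.

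Across the untreated lines the order of MYOCD was mCherry, EWS-FLI1mut, EWS-FLI1 and EWS(YS37)-FLI1, and the middle neighbours overlapped. The order of TAGLN was different: EWS-FLI1 was highest, then EWS(YS37)-FLI1, then EWS-FLI1mut and mCherry, and the last 2 overlapped. Against EWS(YS37)-FLI1, EWS-FLI1 had 2.73 log2 units more MYOCD (10.6 ± 4.18 against 1.60 ± 0.349 CPM) and 0.46 more TAGLN, both given without a test because the EWS(YS37)-FLI1 values of these genes chose the members. MYL9 (0.30 ± 0.06, adjusted p = 0.000887), TPM1 (0.65 ± 0.05, adjusted p = 4.58e-10) and TNNT2 (0.66 ± 0.15, adjusted p = 0.00124) were higher with EWS-FLI1. TPM2 was lower with EWS-FLI1 (-0.12 ± 0.05, adjusted p = 0.0491), a call lost without EWS-FLI1 replicate 1 or 2 or any EWS(YS37)-FLI1 replicate. CNN1 (0.22 ± 0.11, adjusted p = 0.116), SRF (-0.14 ± 0.06, adjusted p = 0.0605), ACTA2 (0.25, adjusted p = 0.463) and XIRP1 (0.33, adjusted p = 0.505) did not pass. SRF did without EWS-FLI1 replicate 2 (-0.17, adjusted p = 0.0455). Of the 8 members other than MYOCD and TAGLN, 3 were higher and 1 lower, where 31.1% of tested genes were called (14.8% higher and 16.3% lower).

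Against EWS-FLI1mut, 4 of these 8 members were higher with EWS(YS37)-FLI1 and 0 lower, where 27.2% of tested genes were called (14.5% higher and 12.7% lower). They were CNN1 (1.32, adjusted p = 8.64e-09), SRF (0.35, adjusted p = 5.15e-05), MYL9 (0.30, adjusted p = 0.00132) and TPM2 (0.19, adjusted p = 0.00362). With limma on log2(TPM + 1) the calls on MYL9 and TPM2 were lost (adjusted p = 0.0811 and 0.149) and TPM1 was called lower (-0.18, adjusted p = 0.0158). XIRP1 was not called (0.79, adjusted p = 0.111) but was without EWS-FLI1mut replicate 1 (1.19, adjusted p = 0.035). The comparisons with mCherry share the 3 control libraries, and those with EWS-FLI1mut share its 3, so they are not independent of each other.

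**Figure D2:**
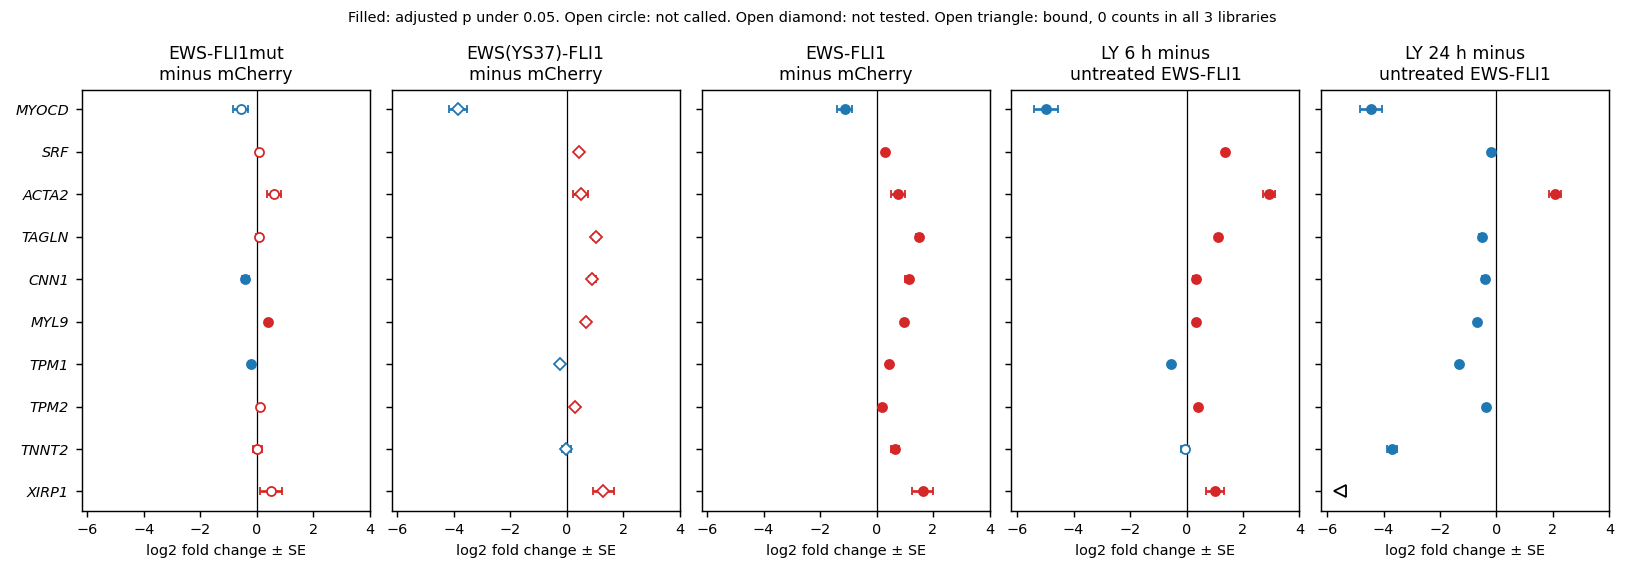
Log2 fold change (horizontal axis) of the 10 members (vertical axis) in 5 comparisons, with bars of 1 standard error; filled points passed adjusted p under 0.05, open circles did not, open diamonds were not tested because that contrast chose the members, and the open triangle is a bound for XIRP1, which had 0 counts at 24 h. MYOCD lies left of 0 in all 5 panels, while TAGLN lies right of it except at 24 h (-0.51).

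In EWS-FLI1 cells given LY2835219, MYOCD was near the limit of counting. The 6 h libraries held 3, 5 and 8 MYOCD counts (0.183, 0.316 and 0.496 CPM) and the 24 h libraries 0, 16 and 11 counts (0, 0.880 and 0.570 CPM), against 8.33 to 15.4 CPM in untreated EWS-FLI1 cells. No treated library came near the untreated ones. The fall was 31.4-fold at 6 h (log2 -4.97 ± 0.43, adjusted p = 4.62e-10) and 21.8-fold at 24 h (-4.45 ± 0.39, adjusted p = 1.69e-09). Leaving out any 1 library gave -5.38 to -4.62 at 6 h and -5.20 to -3.87 at 24 h. The treated groups overlapped each other and were not separated (0.53 ± 0.66, adjusted p = 0.506).

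SRF and 6 of the 8 contractile members rose at 6 h. SRF measured 234, 241 and 236 CPM against 86.3 to 97.7 CPM in untreated EWS-FLI1 cells, or 2.57-fold more (1.36 ± 0.06, adjusted p = 8.31e-16). TAGLN reached 302, 321 and 289 CPM (1.13 ± 0.09, adjusted p = 1.57e-10), its highest level in any group. XIRP1 rose to 4.16, 5.62 and 5.34 CPM (1.01 ± 0.33, adjusted p = 0.0102) and TPM2 to 440, 441 and 409 CPM (0.42 ± 0.05, adjusted p = 3.75e-08). All of these groups were free of overlap, but with limma on log2(TPM + 1) the rise of TPM2 was lost (adjusted p = 0.308), and with transcript-length offsets that of XIRP1 (0.79, adjusted p = 0.106).

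CNN1 and MYL9 depended more on how the libraries were scaled. CNN1 measured 42.7, 48.4 and 48.9 CPM (0.32 ± 0.10, adjusted p = 0.00906) and MYL9 384, 406 and 376 CPM (0.34 ± 0.06, adjusted p = 6.56e-05), both above all untreated EWS-FLI1 libraries. Without scaling factors, which moved the median of all genes to -0.27, neither passed (0.08 and 0.09), and on TPM with limma both were -0.02 or -0.03, a sign change. The call on CNN1 was also lost without EWS-FLI1 replicate 2 (0.24, adjusted p = 0.0783). TPM1 fell to 508, 499 and 509 CPM (-0.54 ± 0.05, adjusted p = 7.87e-10), below all untreated libraries. TNNT2, at 27.0, 33.7 and 34.3 CPM, overlapped them (-0.05 ± 0.14, adjusted p = 0.784).

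At 6 h, then, 7 members rose and 2 fell, 9 of 10 called, where 64.9% of tested genes were called (31.6% rose and 33.3% fell). The member median was 0.38, beside -0.02 over all genes. Without scaling factors 5 rose and 2 fell, with a median of 0.13. The mitochondrial share of counts was 5.87 to 6.59% in the treated libraries and 4.25 to 5.10% in the untreated ones, and its part in these differences was not tested.

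By 24 h the direction had turned for most of them. TAGLN measured 96.7, 95.1 and 100.4 CPM, below untreated EWS-FLI1 (-0.51 ± 0.09, adjusted p = 6.84e-05) but still above the 41.6 to 53.9 CPM of the mCherry control. MYL9 fell to 194, 213 and 166 CPM (-0.69 ± 0.07, adjusted p = 6.39e-09), CNN1 to 29.4, 30.0 and 24.7 CPM (-0.41 ± 0.11, adjusted p = 0.00264) and TPM2 to 246, 256 and 246 CPM (-0.37 ± 0.05, adjusted p = 6.62e-07). In each of these 4 genes the 24 h libraries lay below all untreated EWS-FLI1 libraries. TPM1 fell further, to 283, 305 and 296 CPM (-1.32 ± 0.05, adjusted p = 7.71e-16), and SRF came back to 83.5, 80.7 and 76.5 CPM, slightly under its untreated level (-0.20 ± 0.06, adjusted p = 0.00473).

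Among the 8 contractile members, the striated muscle genes fell most at 24 h. TNNT2 went to 2.91, 1.85 and 2.70 CPM, 13.1-fold below untreated EWS-FLI1 (-3.71 ± 0.19, adjusted p = 1.17e-13) and below every library of any other group. XIRP1 had 0 counts in all 3 libraries at 24 h against 143 in the 3 untreated EWS-FLI1 libraries, so with 3 counts as the limit over the group it was at least 46.9-fold lower, a bound that covers counting error only. ACTA2 was the exception among the members and remained above untreated cells.

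In total 1 member rose and 9 fell at 24 h, where 48.0% of tested genes were called (23.3% rose and 24.6% fell), and the member median was -0.60 beside 0.03 over all genes. Between 6 h and 24 h, 9 of 10 fell and 0 rose, where 62.9% of tested genes were called (32.6% rose and 30.3% fell). SRF fell by 1.56 on the log2 scale (adjusted p = 1.67e-16), TAGLN by 1.64 (adjusted p = 4.23e-13), MYL9 by 1.03 (adjusted p = 2.98e-12), TPM2 by 0.79 (adjusted p = 1.05e-12) and CNN1 by 0.73 (adjusted p = 2.1e-06). These 5 genes rose at 6 h and fell at 24 h against the same 3 untreated libraries.

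**Figure D3:**
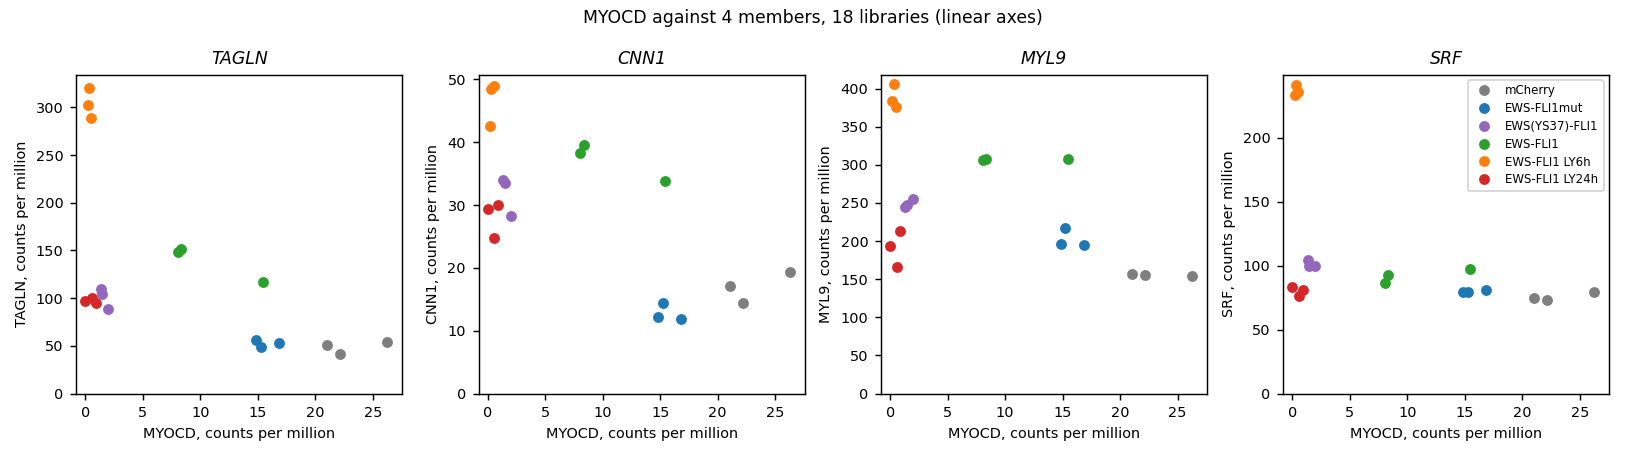
Each panel plots MYOCD (horizontal axis, CPM) against TAGLN, CNN1, MYL9 or SRF (vertical axis, CPM) in the 18 libraries, coloured by group. The 6 h and 24 h libraries share MYOCD levels under 1 CPM but sit at 289 to 321 and 95.1 to 100.4 CPM for TAGLN.

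Set side by side, the treated groups had MYOCD at 0.332 ± 0.157 and 0.484 ± 0.447 CPM while TAGLN was at 304 ± 15.8 and 97.4 ± 2.73 CPM. The group with the most MYOCD, mCherry, had TAGLN levels that overlapped those of EWS-FLI1mut, and both groups lay below all others for TAGLN. Over the 18 libraries the Pearson correlation of log2(CPM + 1) with MYOCD was -0.71 for TAGLN, -0.70 for CNN1, -0.79 for ACTA2, -0.59 for SRF and -0.47 for MYL9. It was positive only for TPM1 (0.57) and TNNT2 (0.39). Over the 15 libraries without EWS(YS37)-FLI1, whose values chose MYOCD and TAGLN, it was -0.735 for TAGLN, -0.68 for CNN1, -0.95 for ACTA2, -0.61 for SRF and -0.48 for MYL9. The ACTA2 level under treatment is uncertain, as described below, and so are both of its correlations. With TAGLN and all 18 libraries the correlations were 0.92 for CNN1, 0.90 for MYL9 and 0.87 for SRF. These are descriptions over 6 groups of 3 libraries of 1 cell line, and the libraries of a group share its construct and treatment. MYOCD fell in 3 tested comparisons, and TAGLN, CNN1 and MYL9 rose in 2 of them (with EWS-FLI1, and at 6 h with the limits given above for CNN1 and MYL9) and fell in the other, at 24 h.

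By the same measure, genes among the 5 most like MYOCD of 13782 protein-coding genes were MAP2K6 (0.964), SLX4 (0.962), UGP2 (0.961) and PRR16 (0.954). MAP2K6, a kinase upstream of p38, averaged 12.4 CPM with mCherry, 10.1 with EWS-FLI1, 4.27 with EWS(YS37)-FLI1, 1.51 at 6 h and 2.26 at 24 h. With EWS-FLI1mut it was at 12.1 CPM. PRR16 went from 39.4 CPM with mCherry to 32.7 with EWS-FLI1, 14.4 with EWS(YS37)-FLI1 and 4.11 at 6 h, but was at 42.7 CPM with EWS-FLI1mut. The genes most like TAGLN were TGFBR2 (0.974), GLIPR1 (0.972) and VCL (0.965). TGFBR2, a receptor of transforming growth factor beta, averaged 100.4 CPM with mCherry, 138 with EWS-FLI1, 185 at 6 h and 126 at 24 h.

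ACTA2 rose at both times of treatment, to 30.6, 31.3 and 26.2 CPM at 6 h (7.61-fold, 2.93 ± 0.21, adjusted p = 2.47e-11) and to 14.8, 19.5 and 14.0 CPM at 24 h (2.06 ± 0.21, adjusted p = 2.61e-08). No treated library overlapped the 2.96 to 4.68 CPM of untreated EWS-FLI1. From 6 h to 24 h it fell by 0.87 (adjusted p = 0.000367), a call lost with limma on log2(TPM + 1) (adjusted p = 0.069). The ACTA2 gene, however, overlaps FAS, the death receptor gene, on the opposite strand, and 350 of the 848 stretches of 31 bases in its main transcript, ACTA2-202, also occur in FAS transcripts. FAS rose with it, from 7.08 ± 1.66 CPM untreated to 36.9 ± 1.55 at 6 h (2.38 ± 0.16, adjusted p = 4.48e-12) and 20.2 ± 2.33 at 24 h (1.51 ± 0.16, adjusted p = 3.36e-08). Whether the counting used strand is not given in the sources used here, so reads from the shared stretches may have been assigned to either gene. Of the stretches of ACTA2-202, 41.5% were shared with another gene and the rest were not. The value of ACTA2 under treatment is therefore uncertain, and the part of shared reads in it was not tested. In EWS-FLI1 against mCherry FAS was at -0.39 ± 0.17 (adjusted p = 0.107), where ACTA2 was at 0.74.

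A smaller overlap touched TAGLN, 21.3% of whose main transcript is shared with PCSK7 on the opposite strand. PCSK7 rose by 0.40 ± 0.07 with EWS-FLI1 (adjusted p = 9.87e-05) and by 0.49 at 6 h, and was at 0.04 at 24 h (adjusted p = 0.607), each smaller in size than the TAGLN difference. For TNNT2 11.6% of these stretches were shared, with LAD1, a gene overlapping it on the same strand that averaged 0.225 CPM with EWS-FLI1 and 0.107 CPM at 24 h. The shared part was 4.51% for TPM1, 1.62% for TPM2, 0.466% for MYL9 and 0.0237% for MYOCD. For SRF, CNN1 and XIRP1 the main transcript shared no such stretch with another gene.

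**Figure D4:**
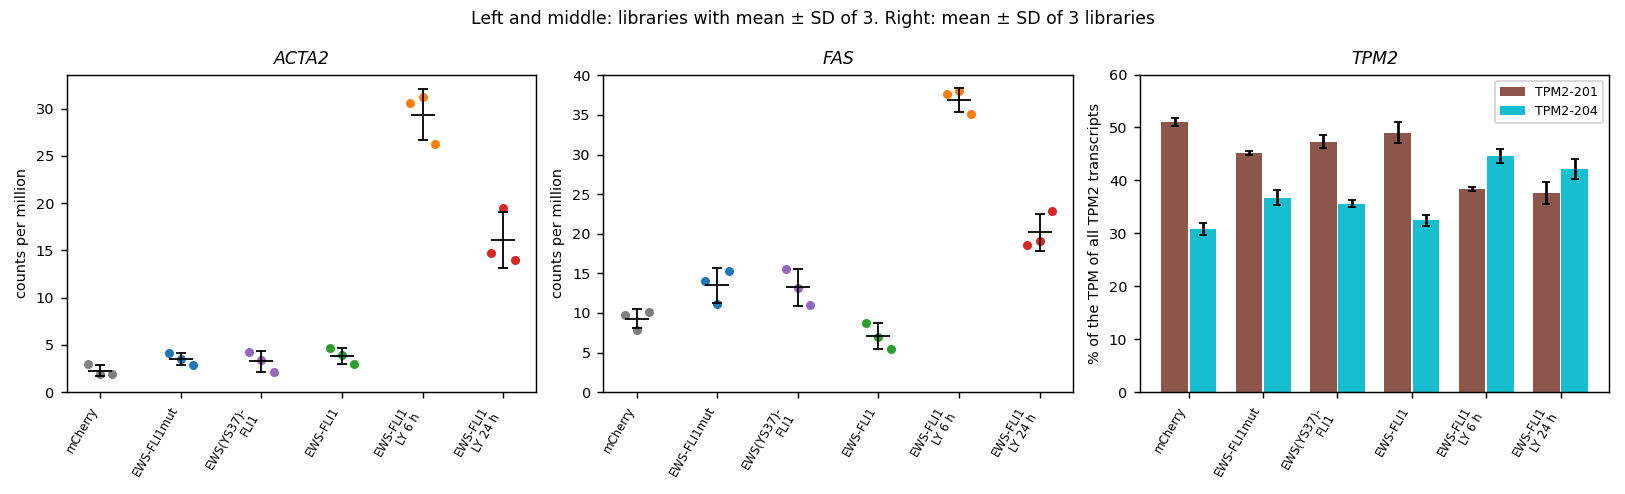
CPM of ACTA2 and of FAS per library by group, with mean ± SD of 3, and the share of TPM2 transcript level held by TPM2-201 and TPM2-204 (percent, mean ± SD of 3). ACTA2 and FAS are both highest at 6 h (29.4 and 36.9 CPM), and TPM2-204 exceeds TPM2-201 in treated groups only.

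The tropomyosin genes also changed in which transcripts were estimated. TPM2-201 held 51.0 ± 0.752% of TPM2 with mCherry and 49.0 ± 2.00% with EWS-FLI1, but 38.4 ± 0.408% at 6 h and 37.6 ± 2.14% at 24 h. TPM2-204 held 30.9 ± 1.12%, 32.4 ± 0.992%, 44.6 ± 1.33% and 42.2 ± 1.83% in the same groups. TPM1-220 was at 38.9 ± 9.02 TPM with mCherry, 82.2 ± 21.5 with EWS-FLI1, 24.7 ± 2.35 at 6 h and 2.67 ± 1.17 at 24 h. These shares are estimates from short reads and were not tested. SRF was listed with 1 transcript only.

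The counts of the lists that follow stand beside 21.1% of all tested genes called with EWS-FLI1 against mCherry, 7.15% with EWS-FLI1mut, 64.9% at 6 h and 48.0% at 24 h. Other cofactors of SRF were measured as a list of 6 tested genes. With EWS-FLI1, 2 rose and 0 fell: FHL2, a LIM protein that binds SRF (0.53 ± 0.06, adjusted p = 2.42e-06), and ELK3 (0.27 ± 0.06, adjusted p = 0.00185). At 6 h, 4 rose and 1 fell, FHL2 from 138 to 345 CPM (1.32 ± 0.06, adjusted p = 1.22e-14) and ELK3 from 148 to 314 CPM (1.08 ± 0.06, adjusted p = 1.13e-13). At 24 h, 0 rose and 2 fell, FHL2 by 0.16 (adjusted p = 0.046) and MRTFB by 0.20 (adjusted p = 0.0201). MRTFA, named here after its values were seen because it is the other main coactivator of these targets, was not called with EWS-FLI1 (0.22, adjusted p = 0.181), at 6 h (-0.01, adjusted p = 0.953) or at 24 h (-0.16, adjusted p = 0.269). Of these cofactors, FHL2 and ELK3 were highest at 6 h, as SRF was.

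Smooth muscle genes outside the members gave 10 tested genes, of which 4 rose and 1 fell with EWS-FLI1, with a median of 0.87. CALD1, caldesmon, went from 194 to 360 CPM (0.89 ± 0.06, adjusted p = 2.58e-10), and MYH11 (2.03 ± 0.69, adjusted p = 0.0389) and DES, desmin (1.42 ± 0.48, adjusted p = 0.0376), rose at levels under 3 CPM. At 6 h, 3 rose and 2 fell, a share called below that of all genes. SMTN, smoothelin, rose from 128 to 247 CPM (0.94 ± 0.06, adjusted p = 2.13e-12), while LMOD1, leiomodin, fell from 4.68 to 1.25 CPM (-1.91 ± 0.32, adjusted p = 1.42e-05). At 24 h, 1 rose and 4 fell, a share close to that of all genes, CALD1 by 1.15 (adjusted p = 1.85e-13) and CSRP1 by 0.89 (adjusted p = 4.6e-12). Only 1 gene of the 10 was called with EWS-FLI1mut, MYH11 (2.52 ± 0.68, adjusted p = 0.0257).

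Cytoskeletal targets of SRF and the MRTFs, which most cell types express, gave 18 tested genes. With EWS-FLI1, 15 of 18 rose and 0 fell (median 0.37), among them ZYX, zyxin (0.73 ± 0.08, adjusted p = 2.95e-07), TPM4 (0.57 ± 0.06, adjusted p = 1.51e-07) and VCL, vinculin (0.57 ± 0.05, adjusted p = 1.45e-08). With EWS-FLI1mut 1 of 18 rose, LIMA1 (0.32 ± 0.09, adjusted p = 0.0395). At 6 h 15 rose and 1 fell (median 0.41, and 11 rose and 1 fell without scaling factors), led by FLNC, filamin C, from 483 to 1645 CPM (1.77 ± 0.11, adjusted p = 2.13e-12) and ZYX from 141 to 370 CPM (1.39 ± 0.07, adjusted p = 7.6e-14). At 24 h 2 rose and 12 fell (median -0.32), including ACTB, beta-actin, from 5494 to 2224 CPM (-1.30 ± 0.05, adjusted p = 4.38e-16) and ACTG1 (-0.85 ± 0.06, adjusted p = 1.18e-11). Between 6 h and 24 h 16 of 18 fell and 0 rose.

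**Figure D5:**
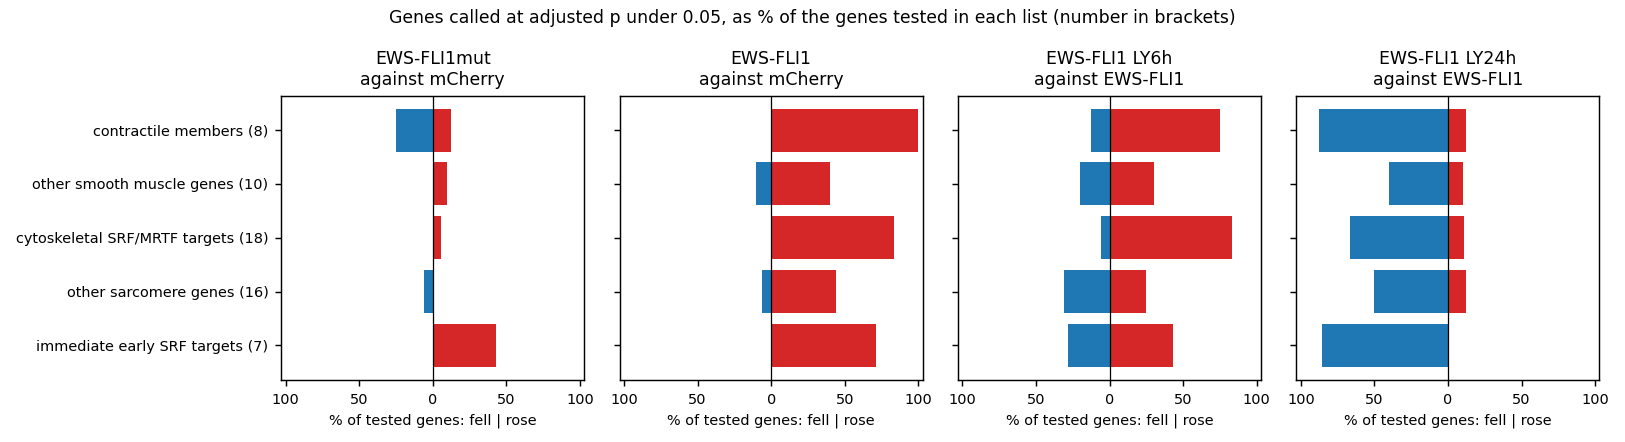
Percent of the tested genes of each list (vertical axis lists, horizontal axis percent, rose to the right and fell to the left) called in 4 comparisons; the number tested is given beside each list and members are left out of the other lists. The contractile members and the cytoskeletal targets mostly rose with EWS-FLI1 (8 of 8 and 15 of 18) and mostly fell at 24 h (7 of 8 and 12 of 18).

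Other sarcomere genes of heart and skeletal muscle were mostly at low levels, and 16 of 29 were tested. With EWS-FLI1 7 rose and 1 fell, the largest rise being that of MYL4, an atrial and embryonic myosin light chain, from 0.206 to 3.31 CPM (3.98 ± 0.63, adjusted p = 6.89e-05). TNNC1, the calcium-binding troponin of heart and slow muscle, was the only one of the 16 called with EWS-FLI1mut, where it fell from 48.6 to 30.3 CPM (-0.68 ± 0.10, adjusted p = 0.000103). At 6 h 4 rose and 5 fell, and the median of 0.21 turned to -0.03 for the list with its 2 members when no scaling factors were used. At 24 h 2 rose and 8 fell, among them NPPB, the B-type natriuretic peptide (-4.03 ± 0.44, adjusted p = 6.65e-08), and MYL4 (-3.13 ± 0.57, adjusted p = 8.19e-05), beside the falls of TNNT2 and XIRP1 given above.

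Muscle transcription factors gave 9 tested genes of 14. With EWS-FLI1 4 rose and 0 fell, among them GATA6 (1.01 ± 0.27, adjusted p = 0.00985) and MEF2D (0.46 ± 0.07, adjusted p = 2.85e-05). At 6 h 1 rose and 5 fell. TBX5 fell from 1.49 to 0.187 CPM (-2.95 ± 0.44, adjusted p = 3.19e-06), HAND2 from 3.45 to 0.745 CPM (-2.20 ± 0.29, adjusted p = 4.65e-07) and MEF2C from 3.27 to 0.989 CPM (-1.71 ± 0.33, adjusted p = 8.26e-05). These 3 low genes, named for the size of their change, fell at 6 h as MYOCD did, while SRF rose. As the list was called at about the rate of all genes, nothing more is read from them. With EWS-FLI1mut none of the 9 was called.

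Immediate early targets, reached through the ELK factors, gave 5 rises and 0 falls of 7 with EWS-FLI1, as in EGR1 from 102 to 187 CPM (0.87 ± 0.09, adjusted p = 1.89e-07) and FOS (0.94 ± 0.14, adjusted p = 2.45e-05). EGR1 (0.85 ± 0.09, adjusted p = 1.87e-06) and FOS (0.88 ± 0.14, adjusted p = 0.000241) were also higher with EWS-FLI1mut, where 3 rose and 0 fell, although TAGLN was not. At 6 h 3 rose and 2 fell, with JUNB from 83.0 to 218 CPM (1.39 ± 0.09, adjusted p = 6.44e-12) and EGR2 down by 0.82 (adjusted p = 0.0101), and at 24 h 0 rose and 6 fell.

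Markers of other cell types moved beside the members. The epithelial keratins KRT8 and KRT18 rose with EWS-FLI1 (0.58 ± 0.05, adjusted p = 4.86e-08, and 0.64 ± 0.05, adjusted p = 3.23e-09), while the other 3 of the 5 epithelial markers were not called. The 5 summed to 520 to 574 CPM with mCherry, 812 to 833 with EWS-FLI1, 943 to 994 at 6 h and 431 to 470 at 24 h. At 24 h all 5 fell. The 5 endothelial markers summed to 4.60 to 18.6 CPM over all groups. Summed smooth muscle genes, the 6 members among them included, ran from 1565 to 1610 CPM with mCherry, 2334 to 2345 with EWS-FLI1, 2755 to 2857 at 6 h and 1307 to 1386 at 24 h. The sums of both lists had the same order over these 4 groups. They parted with EWS-FLI1mut, where the epithelial sum was 773 to 795 CPM, above mCherry, and the smooth muscle sum was 1577 to 1628 CPM, overlapping mCherry. With EWS(YS37)-FLI1 they were 762 to 805 and 1821 to 1891 CPM. The epithelial sums did not stand for each marker. Against mCherry 2 of the 5 rose and 1 fell with EWS-FLI1mut (7.15% of all tested genes called). With EWS(YS37)-FLI1 2 rose and 2 fell (21.7% of all tested genes called). The part of other cell type markers in the members' differences was not tested.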

How the data were processed

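Each library has its own kallisto table, as the authors deposited it. Per the file headers it gives, for every transcript, estimated counts (not normalized), TPM, and an effective length in bases, another unit that was used only for length offsets. The submitters' processing notes name kallisto 0.46, CASAVA and hg38. The transcript set and strandedness are not given in the sources used here, and of the 2 library kits in the labels it is not said which was used where. Transcripts were joined to genes by Ensembl identifier (GENCODE 29), which matched 169797 of 188753. Unmatched transcripts held 2.59 to 2.74% of estimated counts and were dropped. The rest were added up for each gene and rounded to whole numbers.

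Tests used R 4.3.3 and edgeR 4.0.16 with filterByExpr, TMM factors, 1 mean per group over 18 libraries (12 residual degrees of freedom, biological coefficient of variation 8.77%), 9 contrasts, Benjamini-Hochberg over 16786 genes. The code was tested on simulated data. Alternatives used DESeq2 1.42.0 and limma 3.58.1 on log2(TPM + 1). The members and gene lists were chosen with earlier results of these data known. Besides members, the text names, per list and contrast, up to 3 called genes of largest fold change whose higher group averaged at least 1 CPM, and the 5 genes most correlated with MYOCD and 3 with TAGLN. Some results under this rule are not reported here.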

Additional observations from a re-analysis of the deposited data

Results flagged for a closer look

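SRF, TAGLN, CNN1, MYL9, TPM2 and XIRP1 moved in opposite directions against untreated EWS-FLI1 cells at 6 h and at 24 h of LY2835219, and the direct contrast of 24 h with 6 h called each of them. The difference on the log2 scale was -1.56 for SRF, -1.64 for TAGLN, -0.73 for CNN1, -1.03 for MYL9 and -0.79 for TPM2. For XIRP1, with 0 counts at 24 h, it was at most -6.56. For CNN1 and MYL9 the rise at 6 h was the weaker side, lost without scaling factors. The rises of TPM2 and XIRP1 at 6 h were lost with limma on log2(TPM + 1), and that of XIRP1 also with transcript-length offsets. CNN1 and TPM1 moved in opposite directions against mCherry in EWS-FLI1 and EWS-FLI1mut cells, and the direct contrast gave 1.54 for CNN1 and 0.64 for TPM1.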

How the results depend on the processing

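Alternatives were run on the 90 member results: other scaling factors, DESeq2, no filter, transcript-length offsets, limma on TPM, only the compared groups, protein-coding transcripts only, a replicate block and leaving out single libraries. Of 1529 alternative values 1440 kept their side of the threshold, 75 lost the call and 10 gained it. Results called in neither fit stayed among the 1440 even where their sign changed. ACTA2 in EWS-FLI1 against EWS-FLI1mut, for example, ranged from -0.04 to 0.31 when 1 library was left out. The remaining 4 values had been called in edgeR and changed sign. The 4 were CNN1 (-0.01566 and -0.01602) and MYL9 (-0.02649 and -0.0266) at 6 h under limma on log2(TPM + 1) and log2(TPM + 0.1). Both limma fits called 4 members in EWS-FLI1 against EWS-FLI1mut (7 in edgeR) and 5 at 6 h (9 in edgeR). Counted over all 10 members, leaving out 1 library gave 9 to 10 called in EWS-FLI1 against mCherry, 2 to 3 in EWS-FLI1mut against mCherry, 6 to 7 in EWS-FLI1 against EWS-FLI1mut, 5 to 6 in EWS-FLI1 against EWS(YS37)-FLI1, 6 to 7 in EWS(YS37)-FLI1 against EWS-FLI1mut, 8 to 9 at 6 h, 10 at 24 h and 9 between the times. No range is given for EWS(YS37)-FLI1 against mCherry, the contrast that chose the members. The ranges of the other contrasts with EWS(YS37)-FLI1 count MYOCD and TAGLN, whose values there chose the members, so nothing is read from them.

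Over all genes, the calls in EWS-FLI1 against mCherry went from 3536 to 1699 with length offsets, 1679 with limma and a pseudocount of 1, and 1544 with 0.1. In EWS-FLI1mut against mCherry they went from 1200 to 359, 384 and 345, and to between 667 and 1012 without a single library. The same 3 settings gave 1963, 1907 and 1849 of 3645 for EWS(YS37)-FLI1 against mCherry, 1264, 1276 and 1122 of 2734 for EWS-FLI1 against EWS-FLI1mut, 3002, 2990 and 2901 of 5223 for EWS-FLI1 against EWS(YS37)-FLI1, and 2573, 2735 and 2584 of 4565 for EWS(YS37)-FLI1 against EWS-FLI1mut. The cause was not tested. Without scaling factors the rising share of calls moved from 48.7% to 32.2% at 6 h, 51.8% to 70.4% between the times, 49.3% to 64.1% for EWS-FLI1mut against mCherry, 53.1% to 42.8% for EWS(YS37)-FLI1 against mCherry, 53.9% to 39.3% for EWS-FLI1 against EWS-FLI1mut and 53.3% to 37.8% for EWS(YS37)-FLI1 against EWS-FLI1mut. The median of all genes then was 0.31 between the times.

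Deviations of libraries with the same replicate number had correlations of -0.067 to 0.094, and those with different numbers -0.11 to 0.096. In EWS-FLI1mut against mCherry the same-number values were 0.0887, 0.053 and 0.0747, and all others were negative. Values this small do not settle whether the numbers pair libraries. With a replicate block the member counts were 10, 3, 7, 6, 6, 9, 10 and 9 in the contrasts other than EWS(YS37)-FLI1 against mCherry, the same as without it. MYOCD under treatment rests on 0 to 16 counts a library. With limma on log2(TPM + 1), where the pseudocount itself bounds the fall of so low a gene, it was -1.82 at 6 h and -1.83 at 24 h. The correlations without EWS(YS37)-FLI1 were chosen after seeing the data.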
